A study of Mus musculus with 4 samples.

Results

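Pancreatic digestive enzyme genes encode the proteases and lipases that acinar cells of the exocrine pancreas store in zymogen granules and release into the duodenum. Here they comprised 10 of the 18194 genes on the array. Among them were the elastase genes Cela1, Cela2a and Cela3b and the chymotrypsinogen family genes Ctrb1, Ctrc and Ctrl. The others were the carboxypeptidase gene Cpa1, the lipase gene Cel, the lipase-related gene Pnliprp1 and the trypsinogen gene Prss2. All 10 were chosen by name, through all probe sets that the platform annotation assigns to them. The choice was made knowing that these genes were high in the transgenic duodenum, so the duodenum difference is described and supports nothing further. The 10 genes had 17 probe sets, 16 of them assigned to 1 member alone and 1 shared by Cela3b and Cela3a.

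Signals came from 4 Affymetrix Mouse Genome 430 2.0 arrays, 1 for each of wild-type duodenum, transgenic duodenum, wild-type liver and transgenic liver. The transgenic mice expressed a constitutively activated aryl hydrocarbon receptor (AhR), a transcription factor that otherwise waits for a ligand such as a dioxin. All mice were female, 5 to 6 weeks old, fed standard chow and given no other agent, and tissue of 3 mice was pooled for each array. The sources used here name neither the strain nor the promoter that drives the transgene. With 1 array per group there was no spread between replicates, so no difference below has an error or a test, and precision is limited by the count of arrays.

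Acinar cells make trypsinogen, chymotrypsinogen, proelastase and procarboxypeptidase as inactive precursors. In the duodenal lumen the enterocyte protease enteropeptidase (Tmprss15) cuts trypsinogen to trypsin, and trypsin activates the others. In the pancreas these genes are switched on together by the PTF1 complex, in which Ptf1a and a partner bind an E-box and an RBPJ-family protein (Rbpjl in mature acinar cells) binds a nearby second box. Sequence from before the gene start is shown for 4 members because the genes were high together on 1 array and these stretches carry the 2 parts of such a site or repeats of its E-box.

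Promoter sequence was taken from RefSeq on GRCm38.p6, in which 9 of the 10 members were matched. The 250 bases before the annotated start were searched on both strands for the E-boxes CACCTG and CAGCTG, the hexamer TTTCCC of RBPJ-type boxes, and GCGTG, the core that AhR binds with its partner. In the sequences of Cela1 (chr15:100687921-100688170, minus strand) and Ctrb1 (chr8:111691011-111691260, minus strand) the capitals mark an E-box and a TTTCCC with 4 bases between them. In those of Cela3b (chr4:137430521-137430770, minus strand) and Cel (chr2:28563404-28563653, minus strand) the capitals mark CACCTG and, in Cel, TTTCCC, on either strand.
Cela1: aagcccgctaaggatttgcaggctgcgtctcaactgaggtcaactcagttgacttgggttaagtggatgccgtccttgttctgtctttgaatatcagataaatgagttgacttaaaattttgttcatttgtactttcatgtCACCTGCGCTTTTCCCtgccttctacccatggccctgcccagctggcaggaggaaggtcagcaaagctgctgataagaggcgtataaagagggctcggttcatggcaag
Ctrb1: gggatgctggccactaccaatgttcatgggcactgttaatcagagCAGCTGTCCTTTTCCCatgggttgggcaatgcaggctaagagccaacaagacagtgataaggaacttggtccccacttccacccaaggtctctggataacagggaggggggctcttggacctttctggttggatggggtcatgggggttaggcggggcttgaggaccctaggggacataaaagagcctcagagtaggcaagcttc
Cela3b: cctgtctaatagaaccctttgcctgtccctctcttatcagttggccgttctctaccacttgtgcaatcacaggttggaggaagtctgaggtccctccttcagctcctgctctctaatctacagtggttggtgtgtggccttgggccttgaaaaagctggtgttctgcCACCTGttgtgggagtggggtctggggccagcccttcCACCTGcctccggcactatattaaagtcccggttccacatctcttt
Cel: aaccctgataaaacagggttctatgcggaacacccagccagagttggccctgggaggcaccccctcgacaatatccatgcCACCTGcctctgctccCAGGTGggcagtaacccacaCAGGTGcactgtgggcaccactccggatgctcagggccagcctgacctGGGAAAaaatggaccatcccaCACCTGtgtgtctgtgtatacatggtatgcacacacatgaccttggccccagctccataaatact

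CACCTG was present before 6 of the 9 members (Cel, Cela1, Cela2a, Cela3b, Ctrl and Prss2) and in 17.2% of 32851 mouse promoter windows of the same length. CAGCTG was present before Cela1, Ctrb1 and Ctrl and in 13% of all windows. TTTCCC was present before 6 members (Cel, Cela1, Cela2a, Cpa1, Ctrb1 and Prss2) and in 21.9% of all windows. The joined pattern, CANCTG followed by TTTCCC after any 4 bases, which overlaps the single motifs and whose spacing was chosen after these promoters had been read, was found in 9 of the 32851 windows (0.0274%), and Cela1 and Ctrb1 supplied 2 of the windows that hold it. GCGTG was found before 0 of the 9 members and in 28.2% of all windows. These are letter matches in a short window and not measured sites.

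**Figure D1:**
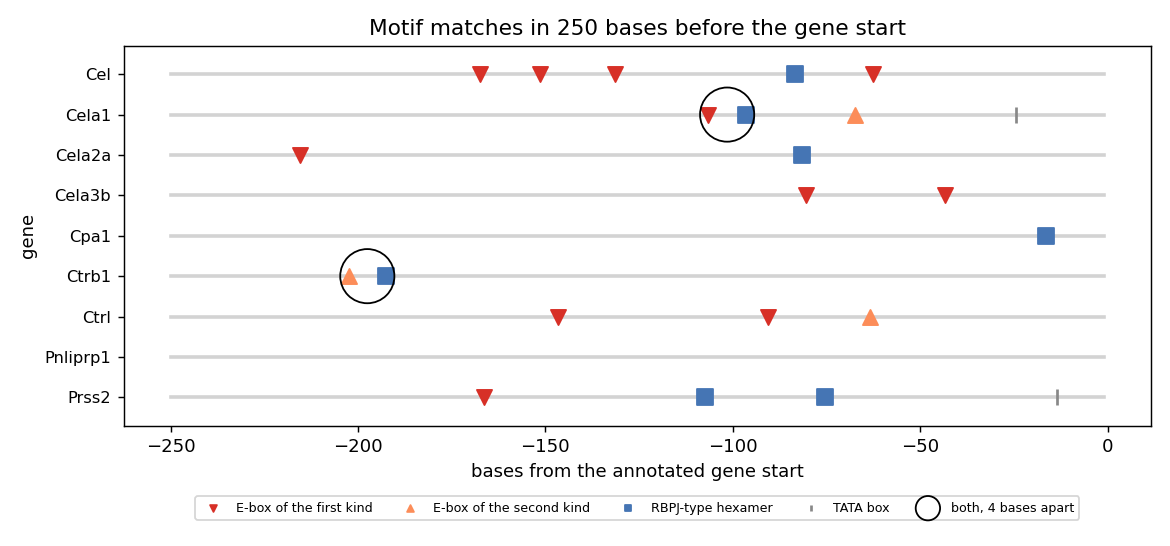
Positions of motif matches in the 250 bases before the annotated start of 9 enzyme genes; the x axis is distance in bases from the start and each grey line is 1 gene. E-box of the first kind is CACCTG, E-box of the second kind CAGCTG and the RBPJ-type hexamer TTTCCC; circles mark the 2 genes, Cela1 and Ctrb1, in which an E-box and the hexamer stand 4 bases apart.

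The members lay on 6 chromosomes. Cela2a (chromosome 4, 141814954 to 141826005) and Ctrc (chromosome 4, 141838239 to 141846287) were neighbours, 12.2 kb apart on GRCm38.p6, while Cela3b lay further off on chromosome 4. Ctrl and Ctrb1 shared chromosome 8, and Cpa1 and Prss2 shared chromosome 6. In the RefSeq annotation of that assembly 9 members were protein coding, and Ctrc was classed as a transcribed pseudogene.

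Signals are MAS5 values, a linear brightness per probe set after a global scaling that gave the arrays a common trimmed mean. A floor of 129.3, the 40th percentile of non-control probe sets averaged over the 4 arrays, stands in for a detection limit. A signal at or below the floor was raised to it before a ratio was taken, so such a fold is a lower bound, written as at least that size. Each gene is given by its brightest probe set, by the average of log2 signals across arrays, and levels are compared within a probe set only. Summed signals of a marker list add probe sets of unlike brightness, so the brightest genes weigh most in them.

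The transgenic duodenum gave the highest signal of the 4 arrays for every one of the 17 probe sets, between 3734.1 and 54933.3. All 10 members were 2-fold or more higher in transgenic than in wild-type duodenum, against 8.74% of the 14717 genes measured in that comparison, and 0 were lower, against 11.1%. All 10 were also 10-fold or more higher, against 0.224% (33 genes). The member log2 ratios ran from 3.63 to 7.28 with a median of 5.09, beside a median of -0.11 over all genes. This contrast chose the members, so nothing is read from these shares. In a bulk pool, more cells of a type and more RNA per cell cannot be told apart.

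**Figure D2:**
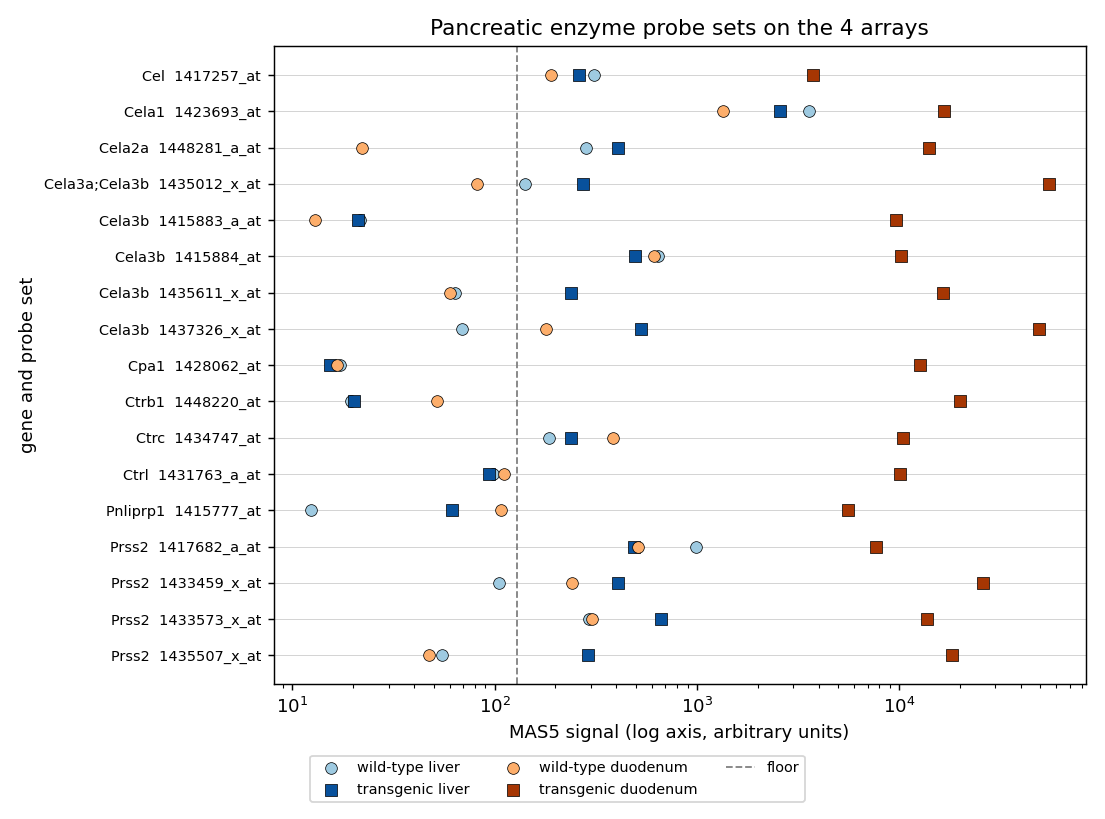
MAS5 signal (log axis) of the 17 enzyme probe sets on the 4 arrays; circles are wild-type and squares transgenic pools, blue is liver and orange is duodenum, and the dashed line is the floor of 129.3. The transgenic duodenum squares sit between 3734.1 and 54933.3, to the right of every other point of the same probe set.

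Trypsinogen is the precursor whose activation starts the cascade. The probe set 1417682_a_at for Prss2, anionic trypsinogen, gave 509 in duodenum of the wild type and 7670.3 in that of the transgenic mice, 995.5 in wild-type liver and 489.2 in transgenic liver. It was therefore 15.1-fold higher in the transgenic duodenum and 2.03-fold lower in the transgenic liver. The other 3 probe sets of Prss2 (1433459_x_at, 1433573_x_at and 1435507_x_at) were at 242.1, 302.2 and 47.6 in wild-type and at 26022.5, 13680.2 and 18336.9 in transgenic duodenum. The fold was thus 107 and 45.3 for the first pair and at least 142 for the last, and the probe set that stands for Prss2 gave the least of its 4 ratios.

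Chymotrypsinogens such as that of Ctrb1 cut beside aromatic residues once activated. Ctrb1, the major mouse chymotrypsinogen gene, gave 51.9 in wild-type and 20057.7 in transgenic duodenum, and 19.5 and 20.1 in wild-type and transgenic liver. It was at least 155-fold higher in the transgenic duodenum and below the floor on the other 3 arrays. Ctrl, which encodes a chymotrypsin-like protease, gave 111.1 and 10080 in duodenum (at least 78-fold higher) and 98.5 and 94.3 in liver. Ctrc, named for chymotrypsin C and classed in RefSeq as a transcribed pseudogene, differed from both in being above the floor on every array. It gave 385 and 10420.9 in duodenum, 27.1-fold higher, and 186.2 and 237.7 in liver.

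Among the elastase genes, Cela2a gave 22.2 in wild-type and 14013.5 in transgenic duodenum, at least 108-fold higher. In wild-type and transgenic liver it gave 284.4 and 408.8. Cela2a was thus below the floor in wild-type duodenum and above it in both livers. Cela1 was above the floor on every array, at 1344.6 in wild-type and 16599.6 in transgenic duodenum, 3579.6 in wild-type liver and 2572.2 in transgenic liver. Its 12.3-fold difference in duodenum was the least of the 10, and its wild-type liver signal was 2.66-fold above that of wild-type duodenum.

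Cela3b had 4 probe sets of its own and 1 shared with its close paralog Cela3a. The probe set that stands for it, 1415884_at, gave 611.3 and 10187.6 in duodenum, 16.7-fold higher, and 642.7 and 493.4 in liver. The probe set 1415883_a_at gave 13 and 9693.7 in duodenum, at least 75-fold higher, and 21.5 and 21 in liver. The 2 remaining ones, 1435611_x_at and 1437326_x_at, stood at 60 and 178.8 in wild-type and at 16573.7 and 49509.9 in transgenic duodenum, folds of at least 128 and of 277. All probe sets of Cela3b thus pointed the same way in duodenum, while their wild-type signals spanned both sides of the floor. Because the arrays' wild-type signal sets the denominator, the order of the members by fold is not an order of their transcript levels.

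Carboxypeptidase A1 trims residues from the end of a peptide. Cpa1 gave 16.7 in wild-type and 12675 in transgenic duodenum, at least 98-fold higher, and 17.2 and 15.3 in liver. Like Ctrb1, Ctrl and Pnliprp1, it was above the floor in the transgenic duodenum alone.

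Lipases such as that of Cel free fatty acids from dietary lipid in the lumen. Cel, the bile salt-stimulated carboxyl ester lipase, gave 189.8 and 3734.1 in duodenum, 19.7-fold higher, and 308.8 and 261.2 in liver. Pnliprp1, pancreatic lipase-related protein 1, gave 107.5 and 5567.8 in duodenum, at least 43.1-fold higher, and 12.3 and 61.7 in liver. Cel was thus above the floor on every array, while Pnliprp1 reached it in the transgenic duodenum alone.

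In wild-type duodenum 5 of the 10 members were above the floor (Cel, Cela1, Cela3b, Ctrc and Prss2), and in each liver 6 were, the same 5 genes with Cela2a. Between the wild-type pools, 6 members could be compared. Ctrc was 2.07-fold higher in duodenum than in liver, against 18.5% of genes 2-fold or more higher. Cela1 and Cela2a were lower in duodenum, Cela1 by 2.66-fold and Cela2a by at least 2.2-fold, against 13.6% of genes 2-fold or more lower. Under quantile normalization, and again with arrays scaled to spiked hybridization controls, 0 members were higher and 4 lower in this comparison, and with no floor 3 of 10 were higher and 2 lower.

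The liver contrast was not used to choose the members. Of the 6 members measured there, transgenic liver was 2-fold or more above wild type for 0, against 4.72% of 13948 genes, and 1, Prss2, was lower, against 3.6%. The member log2 ratios ran from -1.02 to 0.52 with a median of -0.31, beside 0.01 over all genes, and the 4 members not measured were below the floor on both liver arrays. The liver direction depended on the probe set and the scaling: with the mean over probe sets the member median was 0.44, Prss2 was at a log2 ratio of 0.75 and 0 members passed 2-fold, and with scaling to the spiked controls 2 members were higher, 0 lower and the median was 0.31, beside 0.66 over all genes.

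Within liver the probe sets split by type. Identifiers ending in _x_at mark probe sets with probes that can also bind other transcripts, and 6 of the 17 were of this kind, all of them for Cela3b, Prss2 or the Cela3a and Cela3b pair. All 6 were brighter in transgenic than in wild-type liver, with 4 of them 2-fold or more higher, against 6.14% of _x_at probe sets. Of the 11 other probe sets, 6 could be read in liver, where 0 were higher by 2-fold or more (4.38% of such probe sets were) and 1 was lower (3.61%). For Cela3b, 1437326_x_at went from 69.1 to 531.8 in liver, at least 4.11-fold higher, while 1415884_at went from 642.7 to 493.4. For Prss2, 1433459_x_at went from 105.7 to 409.3, at least 3.17-fold higher, and 1433573_x_at from 292.1 to 662.5, 2.27-fold higher, while 1417682_a_at went the other way. In wild-type liver 2 of the 6 _x_at probe sets were above the floor, while all 6 of the others that could be read were. Probe set type thus went partly with wild-type level, and their parts were not separated. This split was noticed after the values were seen, and which transcripts the _x_at probes bound in liver was not tested.

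**Figure D3:**
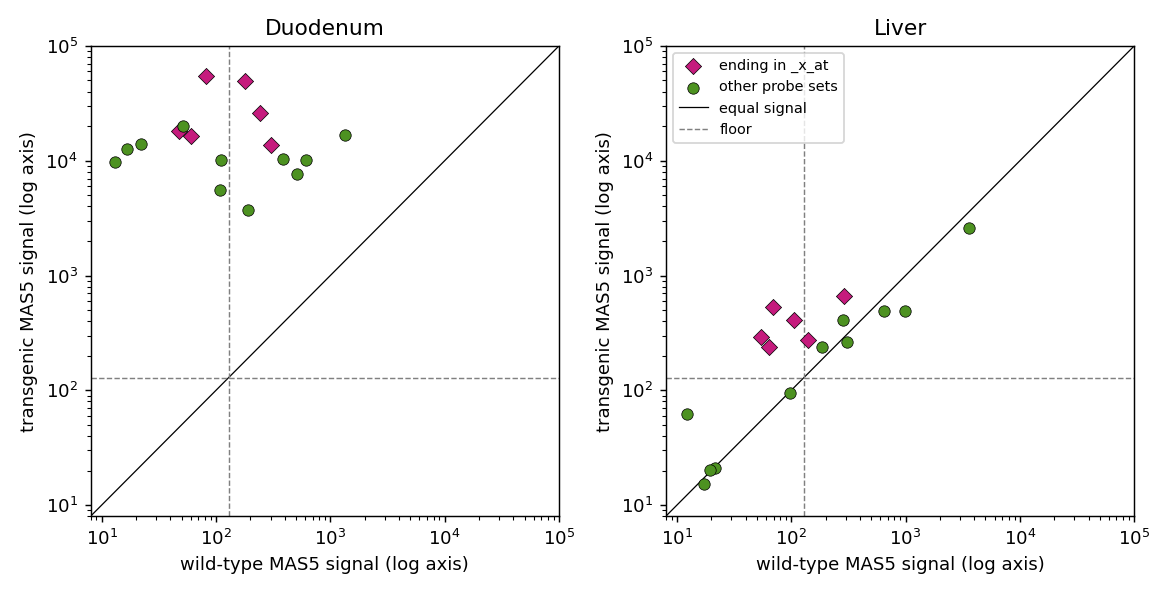
Transgenic against wild-type MAS5 signal (both axes log) for the 17 enzyme probe sets, duodenum on the left and liver on the right; diamonds are probe sets ending in _x_at, circles the others, the solid line is equal signal and dashed lines are the floor. In duodenum all 17 points lie far above the line; in liver the 6 diamonds lie above it and the circles lie near or below it, apart from Pnliprp1 at 12.3 and 61.7, below the floor on both arrays.

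The transgenic liver signal was set against the transgenic duodenum signal of the same probe set. It came to 0.1% for Ctrb1, 0.121% for Cpa1 and 0.217% for 1415883_a_at of Cela3b, all with liver signals below the floor. It came to 1.07% for 1437326_x_at of Cela3b, 1.57% for 1433459_x_at and 1.58% for 1435507_x_at of Prss2. For Tff2, a trefoil peptide that Brunner glands and stomach mucous cells secrete, which was also higher in both transgenic pools, the value was 2.23%, at 2058.7 in transgenic and 84.2 in wild-type liver. Over the 6 _x_at probe sets the value ran from 0.5% to 4.84%. Over the 11 others it ran from 0.1% to 15.5%, the upper end being Cela1, followed by Cel at 6.99%, 1417682_a_at of Prss2 at 6.38% and 1415884_at of Cela3b at 4.84%. Those 4 were brighter in wild-type than in transgenic liver, at 21.6%, 8.27%, 13% and 6.31% of the transgenic duodenum signal. The floor itself lies at 0.645% of that signal for Ctrb1 and at 1.02% for Cpa1.

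Other enzymes of pancreatic juice were read from a list of 18 genes, of which 9 had a probe set of their own and the rest were not analysed here by name. In the transgenic duodenum 6 of them were higher by 2-fold or more and 0 were lower, with a median log2 ratio of 3.44 beside -0.11 over all genes. For this list and each one below, the 2-fold shares over all genes were 8.74% higher and 11.1% lower in duodenum. In liver they were 4.72% and 3.6%. Cpb1, carboxypeptidase B1, gave 47.1 and 6004.9 in duodenum, a log2 ratio of at least 5.54. Rnase1, the pancreatic ribonuclease, gave 72 and 5624.7, and 2210010C04Rik, a trypsinogen-like gene, gave 489 and 14001.3, log2 ratios of at least 5.44 and of 4.84. The probe sets of 2210010C04Rik disagreed in duodenum. Another one was flat, at 434.7 in wild-type and 465.9 in transgenic duodenum, a log2 ratio of 0.1. A further one gave 25.3 and 16023.1, a log2 ratio of at least 6.95. Pla2g1b, the pancreatic phospholipase A2, gave 40.5 and 1657 on its brightest probe set, but 253.4, 12.7 and 41.9 on the others in transgenic duodenum.

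Clps, the colipase that anchors pancreatic lipase to fat droplets, was bright in wild-type duodenum already, at 2979.2 against 9535.9, a log2 ratio of 1.68. The second probe set of Clps gave 1319.4 and 21639.4, a log2 ratio of 4.04. Pnliprp2, a lipase related to Pnliprp1, gave 352 and 3827.9, a log2 ratio of 3.44. On their brightest probe sets 3 enzymes were not 2-fold different: Dnase1 (log2 ratio 0.70), the kallikrein Klk1 (-0.54) and the trypsinogen Prss3, which was above the floor only in wild-type duodenum, at 162.9. The probe sets of Klk1 disagreed. The one that stands for it gave 824.3 and 568.7 in duodenum and stayed near that level in liver, while the other 3 gave 389.9 and 3272.4, 461.8 and 3324.3, and 871.6 and 10128.4 in duodenum, log2 ratios of 3.07, 2.85 and 3.54, and were below the floor in both livers. With the mean over probe sets 7 of the 9 enzymes were higher. In liver, 3 of the 9 were measured, 0 were higher and 1, Rnase1, was lower, at 264.9 in wild-type and 103.4 in transgenic liver.

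Acinar secretory proteins other than the digestive enzymes were split. In the transgenic duodenum 5 of 10 genes were higher by 2-fold or more and 0 lower, with a median log2 ratio of 0.80; without probe sets that can detect several transcripts, 2 of 7 were higher. Sycn, syncollin of the granule membrane, gave 40.1 and 8025.8, a log2 ratio of at least 5.96, and Gp2, the major granule membrane glycoprotein, gave 282.6 and 1421.8, a log2 ratio of 2.33. Pdia2, the pancreatic disulfide isomerase, was at a log2 ratio of 2.14, Cuzd1 at 1.71 and the serpin Serpini2 at 1.16 or more. Reg1, the regenerating protein that small intestine also makes, was at 50872.1 in wild-type and 28560.6 in transgenic duodenum (log2 ratio -0.83), and Spink1, the trypsin inhibitor, was at 30297 and 33664.2. Both were far above the floor in the wild type already. Erp27 was the other gene at the low end, at 203.4 in wild-type and 60.6 in transgenic duodenum. In liver 1 of 7 was higher (Reg1, 115.1 and 361.1) and 1 lower (Reg3d, 318.9 and 157.3).

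None of the acinar transcription factors was 2-fold or more higher beside the enzyme genes. Of 8 factors, 7 were measured in duodenum and 0 were 2-fold or more different, with a median log2 ratio of -0.28; in liver the same counts were 7 and 0, with a median of -0.33. Nr5a2, Gata4, Gata6 and Xbp1 stood at 1305.6, 861, 2123 and 9936.1 in wild-type duodenum already. Added transcript of these factors would move their ratios less than those of genes near the floor. Ptf1a gave 238.5 in wild-type and 34.8 in transgenic duodenum, and Rbpjl 229.8 and 52.4, so both were below the floor on the array where the enzymes were high. Bhlha15 (Mist1), which matures the secretory apparatus, gave 370 and 400.6, although its second probe set gave 285.3 and 106. Gata4 was at a log2 ratio of 0.48 and Xbp1, which expands the endoplasmic reticulum of secretory cells, at 0.20, although another probe set of Xbp1 gave -1.03, as did one of Nr5a2. The signals of Ptf1a and Rbpjl in the wild type were less than a log2 unit above the floor, so that a loss could be read only as a log2 ratio of -0.88 and -0.83 or lower.

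Receptors that trigger acinar secretion and the proteins of granule release were counted on their brightest probe sets: of 12 measured genes 1 was higher and 1 lower in transgenic duodenum, with a median log2 ratio of 0.09. The higher one was Itpr2, an inositol trisphosphate receptor of calcium stores, at 202.9 and 512.4, and the lower one Snap23, a granule fusion protein, at 825.4 and 280.2. The other probe sets of Itpr2 that were measured ran from -0.61 to at least 1.13 and those of Snap23 gave -0.94 and -0.31. Rab3d, a small GTPase of the zymogen granule, was at 0.31 on the probe set that stands for it, but its other 3 gave 1.57 (297.8 and 886.1), 1.33 and 0.87. Rab27b was at -0.50 in duodenum on the probe set that stands for it. Its others passed 2-fold in opposite directions, at -1.44, at -1.05 or lower and at 1.93 or more. Sctr, the secretin receptor, was at a log2 ratio of at least 0.72, and Aqp12, an acinar water channel, at -0.63. Cckar, the cholecystokinin receptor, was below the floor on all 4 arrays, with a highest signal of 47.1. In liver 0 of 12 were higher and 2, Rab27b and Aqp12, were lower, with a median of -0.12. With the floor at the 60th percentile 0 genes were higher in duodenum, and with no floor 2 were.

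In the lumen and the mucosa, the genes that activate, restrain or call for the enzymes gave 2 higher and 1 lower of 6 in transgenic duodenum (median log2 ratio 0.89). Tmprss15, enteropeptidase, was the lower one, at 841.8 in wild-type and 290.5 in transgenic duodenum, a log2 ratio of -1.53. Sct, secretin, which calls for bicarbonate, was at 537.3 and 1271.6, a log2 ratio of 1.24, and Cck, cholecystokinin, which calls for enzymes, at 332.5 and 606.9, a log2 ratio of 0.87. Serpini2 was the other higher gene; the count was 1 under 3 of the alternatives, 3 under quantile normalization and 2 under the others. In liver 0 of 5 were 2-fold different, with a median of 0.54.

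Markers of the cells that a piece of duodenum could hold were read beside the enzymes. Of 12 acinar markers outside the member list, 11 were measured in duodenum, 7 were higher and 0 lower, and their summed signal was 5079.1 in wild-type and 28606.7 in transgenic duodenum; it was 1492.8 and 1110 in liver. That list shares genes with the enzyme, secretory protein and factor lists above, and it was led by Sycn and Cpb1, with Ptf1a and Rbpjl lowest. Of 11 islet markers 8 were measured, 1 was higher and 0 lower, with summed signals of 3616.8 and 3707.9. The higher one was Ins2, insulin, at 102.7 in wild-type and 454 in transgenic duodenum, a log2 ratio of at least 1.81 on a single _x_at probe set, and Iapp, amylin, was next, at 126.6 and 173. Another probe set of Iapp passed 2-fold, at 118.8 and 269.8 (log2 ratio of at least 1.06), another gave 0.78, and neither array exceeded the floor on its last probe set. Ppy, Nkx6-1 and Ucn3 were below the floor on all arrays. Slc30a8 was at 190.6 and 121.6 and Gcg, glucagon, which gut endocrine cells also make, at 380 and 315.4. Pdx1 (1114.9 and 1158.1) and Sst (1036.6 and 994.1) were the largest parts of the islet sums. A change in a dimmer marker such as Ins2 moved those sums little.

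For duct markers, 3 of 8 were higher by 2-fold or more and 0 lower, with summed signals of 24375.6 in wild-type and 39734.7 in transgenic duodenum. Muc1 was at 34 and 625.5 and Sox9 at 122.2 and 497.8, and Krt19, which enterocytes also express, at 10642.6 and 24874.6. Slc4a4 (log2 ratio -0.54) and Epcam (-0.25) were the lowest on their brightest probe sets, but the other probe sets of Slc4a4 that were measured gave 1.74, 0.97 and -0.76 and that of Epcam 0.50. The other probe sets of Sox9 gave at least 0.84 and -1.05, so Slc4a4, Epcam and Sox9 had no settled direction. For Brunner gland and stomach markers, 6 of 8 were higher and 0 lower, and their summed signal went from 4048.4 to 159287.1. Tff2 gave 225.8 and 92301.5 and the gastrokine gene Gkn3 431.5 and 55467.7, while Chia1 (161.2 and 7.3) and Atp4b (573.4 and 497.7) were lowest and Gast, the antral hormone, Cblif and Muc5ac were below the floor on both duodenum arrays. The enzyme genes and the Brunner gland and stomach genes were thus high in the same pool.

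For Paneth cell markers, 2 of 6 were higher and 0 lower (summed signal 97210.4 and 126967.5), led by Nupr1 and Ang4, with Lyz1 and Pla2g2a lowest. Ang4 was higher on an _x_at probe set, at 14289.8 and 34749.9. Its other probe set gave 9322.4 and 9574.6, a log2 ratio of 0.04. The Paneth cell defensin Defa31, on no list and named after its values were seen, was at 85.4 and 21167.9, a log2 ratio of at least 7.36 on an _x_at probe set that other defensin transcripts can bind. For enterocyte markers, 2 of 9 were higher, Anpep and Slc15a1, and lower in 0, with Mttp and Fabp2 lowest and summed signals of 317829 and 430882.1. Smooth muscle markers were higher in 3 of 8 cases on their brightest probe sets, led by Cnn1 and Tagln, with Des and Lmod1 lowest (12661 and 23823.9). The second probe set of Des passed 2-fold, at 568.1 and 1385 (log2 ratio 1.29, against -0.35), so Des had no settled direction. Of the 2 adipocyte markers measured neither was 2-fold different, Cidec at 0.51 and Fabp4 at -0.51, and Adipoq and Lep were below the floor in both duodenum pools. B cell markers were 2-fold or more lower in 6 of 7 cases, against 11.1% of all genes. Their summed signals were 3710 and 1092.8, with Ms4a1 and Blk lowest and Cd79a and Pax5 least changed. Of 6 hepatocyte markers measured in duodenum 1, Ttr, was higher, at 164.4 and 2848.9 on an _x_at probe set. Alb was next at 216.3 and 299.4, Cps1 and Apoa2 were lowest, and the summed signals were 108506.2 and 119347.4. Apoa1, at 89996.3 and 100487.6, was the largest part of both sums, which therefore say little about the other hepatocyte markers. Other probe sets of Ttr gave log2 ratios of 3.38 and of at least 2.31. A further probe set of Ttr was below the floor in both duodenum pools, at 30.1 and 28.0, but gave 80886.5 in wild-type liver. The probe sets of Ttr thus disagreed in duodenum.

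The labelled tissues matched their markers in the wild type. All 9 enterocyte markers were higher in duodenum than in liver, and 8 of 9 hepatocyte markers were lower, the exception being Apoa1, which enterocytes also make. RNA quality differed between the duodenum arrays: the Gapdh signal ratio of 3′ to 5′ probe sets was 1.03 for the wild type and 3.07 for the transgenic pool, and that of Actb 1.77 and 2.69. The part of RNA quality in the enzyme values was not tested. With 1 pool per group, genotype, the place where the piece was cut and pancreas tissue carried along with it cannot be told apart, and the values above are those of these pools.

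**Figure D4:**
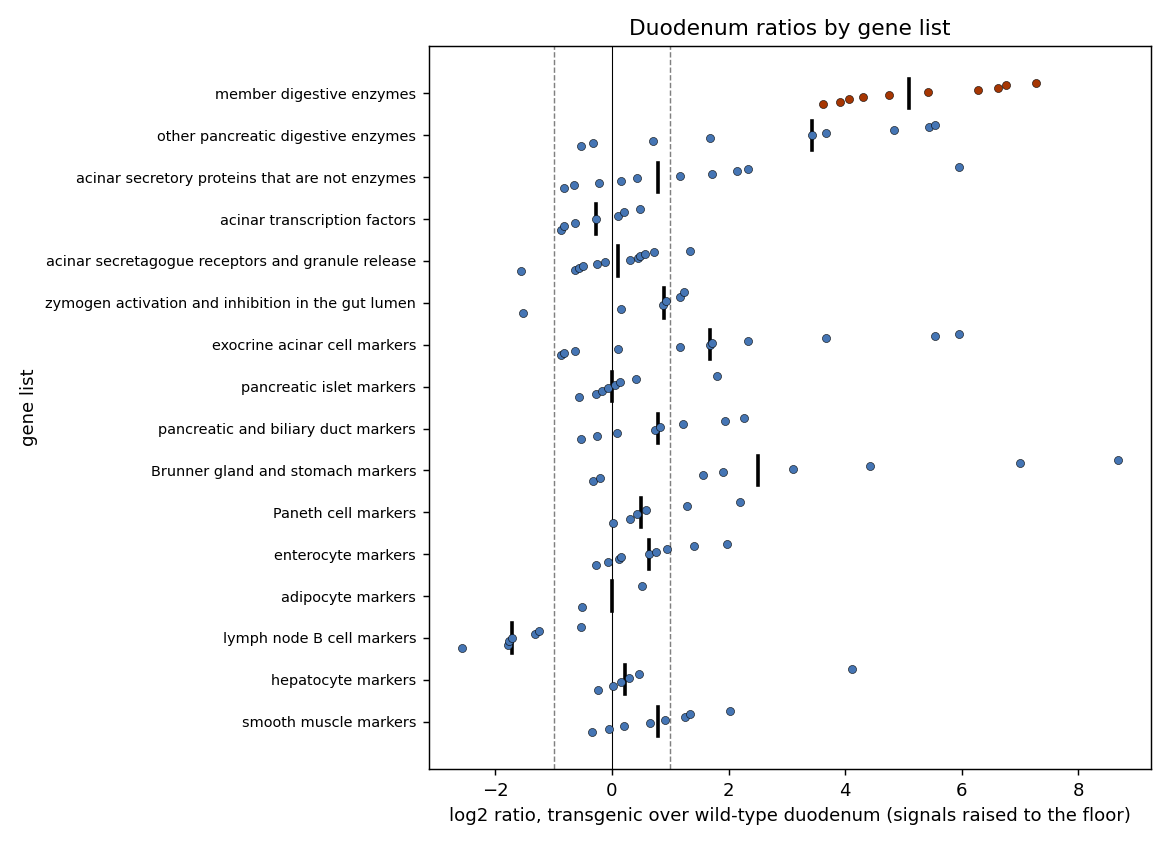
Log2 ratio of transgenic over wild-type duodenum for each measured gene of the member list (brown) and of the other gene lists (blue), with signals raised to the floor; black bars are list medians and dashed lines mark 2-fold. All 10 members lie between 3.63 and 7.28, the acinar transcription factors lie between -0.88 and 0.48, and the islet list has 1 gene, Ins2, beyond 2-fold, each gene being drawn at its brightest probe set.

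Of the 33 genes with a 10-fold or greater excess in transgenic duodenum, 10 were members. A further 6 were on the lists of pancreatic enzymes or acinar secretory proteins, and 3 were Brunner gland or stomach markers. The lists were drawn up knowing earlier results of these arrays, so this is a description. The 10 other genes whose profile was most like the members' were found by the distance over the 4 arrays between centred log2 signals and the members' median, among genes that reached 8 times the floor on some array. They were Cpb1 (distance 0.16), Sycn (0.50), 2210010C04Rik (0.52), Rnase1 (0.83), Wfdc18 (0.85), Pgc (1.21), 2310057J18Rik (1.32), Gkn3 (1.41), Pla2g1b (1.48) and Pnliprp2 (1.54). Each gene entered by its brightest probe set, so the flat probe set of 2210010C04Rik had no part in its distance or its 10-fold call. Among the members themselves this distance ran from 0.11 for Pnliprp1 to 2.39 for Cela1, so Cela1 was further from the members' median than any of those 10.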

How the data were processed

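The authors deposited MAS5 signal intensity on a linear scale, 1 value per probe set, per the submitters' processing notes. The version of MAS5, the detection calls and the scan settings were not given in the sources used here. Per the labels, Trizol was used to extract total RNA, and cRNA was labelled with biotin. Groups follow the genotype and tissue in the labels, 1 array each. Of 45101 probe sets, 34958 had 1 gene symbol in the platform annotation, 932 had several and 9211 were not listed; Entrez identifiers of 34754 matched RefSeq genes of GRCm38.p6. Log2 ratios were computed in Python 3.11.15 (numpy 2.4.6, pandas 2.3.3) with no further normalization; the ratio step was tested on simulated data. Genes below the floor of 129.3 on both arrays of a comparison were left out of it. Named genes were the members, genes of 5 pathway lists, the 2 highest and 2 lowest of each of 10 marker lists in duodenum, and the 10 most alike; others were chosen after their values were seen. Members and lists were chosen with earlier results of these data known. Alternatives were the floor at the 60th percentile, no floor, the mean over probe sets, omission of probe sets ending in _x_at, _s_at or _a_at, quantile normalization, and scaling to 18 spiked hybridization control probe sets. No fit or significance test was possible with 1 array per group.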

Additional observations from a re-analysis of the deposited data

Results flagged for a closer look

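Prss2 pointed in opposite directions in the tissues on the probe set that stands for it, 15.1-fold higher in transgenic duodenum and at a log2 ratio of -1.02 in transgenic liver; the difference between the tissues was not tested, and the other 3 probe sets of Prss2 were higher in both.

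Probe sets shared by several pancreatic enzyme genes stand for no gene in the comparisons above, and 3 of them were above the floor in transgenic duodenum and above their wild-type signal. The one shared by Cela3a and Cela3b, 1435012_x_at, gave 54933.3 against 82.2 in wild-type duodenum, at least 425-fold higher, and 140.7 and 274.8 in liver. The one shared by the 5 pancreatic amylase genes Amy2a1 to Amy2a5, 1416055_at, gave 29250.4 against 39.4, at least 226-fold higher, and 49.6 and 237.4 in wild-type and transgenic liver. The one shared by the trypsinogen genes Try4 and Try5, 1415954_at, gave 3757.1 against 6.8, at least 29.1-fold higher. A further one, shared by 4 genes that include Prss1 and Prss3, was below the floor on all 4 arrays, at 8.0 and 35.1 in duodenum.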

How the results depend on the processing

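All 57 member log2 ratios in duodenum under the alternatives were at or above 2-fold higher, from 3.44 to 9.57, and 10 of 10 members passed (7 of the 7 left without multi-transcript probe sets). Their median was 5.09 as reported, 4.57 with the floor at the 60th percentile, 5.23 with no floor, 6.06 with the mean over probe sets, 4.76 without multi-transcript probe sets, 5.10 under quantile normalization and 4.83 with scaling to the spiked controls. In liver, the count of members 2-fold different was 2 with no floor, 0 with the mean, 0 without multi-transcript probe sets and 2 with the spiked controls, and the median was -0.38 with the higher floor, -0.12 with none, 0.44 with the mean and 0.31 with the spiked controls; Prss2 in liver reversed to 0.75 with the mean, by whose construction its 3 _x_at probe sets enter. Between the wild-type pools, 1 member was 2-fold different with the higher floor and 5 with none (3 higher, 2 lower), and the median was -0.15 and -0.06 under these, -0.35 with the mean, -0.39 without multi-transcript probe sets, -1.09 under quantile normalization and -1.15 with the spiked controls. Among lists in duodenum, acinar secretory proteins had 2 higher without multi-transcript probe sets. Receptors and granule release had 0 higher with the higher floor and 2 with none. Activation and inhibition had 1 with the higher floor, without multi-transcript probe sets and with the spiked controls, and 3 under quantile normalization. Other enzymes had 7 with the mean. In liver with no floor 3 other enzymes, 3 acinar secretory proteins, 1 receptor or release gene and 3 activation genes were higher. With the spiked controls these were 3, 2 and 4 for the last 3 lists, and acinar secretory proteins had 0 with the higher floor. Quantile normalization moved the median of all genes in duodenum from -0.11 to 0.04, and the spiked controls moved that in liver from 0.01 to 0.66. Except where stated, the cause was not tested. No paired analysis was possible because each group held 1 array. Signals near the floor limit the folds of Ctrb1, Ctrl, Cpa1, Cela2a and Pnliprp1 to lower bounds.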

Other observations

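Among the genes 10-fold or more higher in transgenic duodenum, 13 were on none of the lists; the ones named here were chosen after their values were seen. The largest ratio among the 13 was that of the defensin probe set Defa31, at 85.4 and 21167.9 in duodenum and below the floor in both livers. Acta1, skeletal muscle actin, was at 55.8 in wild-type and 4529.1 in transgenic duodenum and at 7.9 and 686.7 in wild-type and transgenic liver, so it was higher in both transgenic pools (log2 ratios of at least 5.13 and 2.41). Aqp5, a water channel of gland epithelia, was at 11.4 and 1554.6 in duodenum and below the floor in both livers. Slc44a4, a choline transporter-like protein, was at 131.2 and 1319.3 in duodenum and at 56.6 and 321.6 in liver. Pglyrp1, an antibacterial recognition protein, was at 616.7 and 8581 in duodenum and below the floor in both livers, as were the member genes Ctrb1, Ctrl, Cpa1 and Pnliprp1.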
